A study of Mus musculus with 7 samples.

Results

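The genes described here are 10 members of the transforming growth factor beta (TGF-beta) pathway: the ligand gene Tgfb1, the receptor genes Tgfbr1, Tgfbr2 and Tgfbr3, the signal transducer genes Smad2, Smad3, Smad4 and Smad5, and the inhibitor genes Smad7 and Ski. They were taken by name: every row of the expression table whose array annotation names 1 of these genes and no other was kept. This gave 1 probe set for each of the 10 genes, among 22180 genes named alone by a row, 25335 annotated probe sets and 41155 rows in all. They were measured on 7 single-channel Affymetrix arrays, each carrying cDNA made from the RNA of hematopoietic stem cells (HSCs), the rare marrow cells from which all blood lineages renew. One group of 3 arrays came from mice with an Ahr knockout (Ahr-KO) and the other of 4 from mice with wild-type Ahr (WT), all on a C57BL/6J background and killed at 8 weeks of age. Lineage-positive cells were depleted from the marrow and HSCs were isolated by SLAM-family surface markers. Ahr encodes the aryl hydrocarbon receptor (AhR), a transcription factor activated by aromatic ligands. The labels do not name the deleted part of Ahr or a driver restricting the deletion to some cells, nor do they say whether an array holds 1 mouse or a pool. The p-values therefore reflect array-to-array spread alone, and that spread may be technical. In sorted but bulk RNA of this kind, fewer cells of a type and less RNA per cell cannot be told apart.

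In this pathway, secreted TGF-beta is held in a latent complex until it is released. The active ligand joins the type II receptor to the type I receptor, which phosphorylates Smad2 and Smad3. These bind Smad4 and enter the nucleus, where they switch target genes on or off. Smad5 serves the related bone morphogenetic protein (BMP) branch. In the bone marrow, TGF-beta is known as a signal that holds HSCs in quiescence.

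Intensities are the deposited linear values. A change is given as a log2 difference, Ahr-KO minus WT, of log2(intensity + 1), with a moderated standard error (SE). The added 1 shrinks the change of dim genes, yet readings near 0 can still make it large. For such genes the size depends on the number added. Each array has a background mark, the 95th percentile of its 1108 olfactory receptor probe sets, genes not known to serve in blood cells. The marks ran from 33.8 to 42.8, and 30.7 to 44.9% of probe sets lay above them. Array pairs correlated at 0.619 to 0.772 across probe sets, so no array was a copy of another. The Ahr probe set itself did not check the labels, because the part of the gene it covers is not given: it read 34.1, 137 and 26.4 in the knockout, against 31.3, 57.9, 14.9 and 20.5 in the wild type. The HSC label was checked on 9 measured marker genes of 11 listed, of which Kit, Hlf, Gata2 and Meis1 exceeded the mark on all 7 arrays and none stayed below it throughout. Slamf1, which encodes the SLAM-family marker CD150, was uneven: it read 57.4, 78.0 and 236 in the knockout, against 4.56, 23.3, 7.81 and 73.3 in the wild type, where it passed the mark on 1 of 4 arrays. On WT replicate 2 the HSC genes Mecom and Hoxb5 were listed at 0 and 0.31. Granulocyte and monocyte markers were also detected: 5 of 11 exceeded the mark on all 7 arrays, and 1 stayed below it on all. Among them, S100a8 and Ngp read 4237 and 2837 on WT replicate 2, against 5.97 and 0.04 on WT replicate 1. The markers therefore do not show how pure the sorted cells were.

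Promoters are shown because the deleted factor is one that binds DNA: AhR, with its partner ARNT, recognises sites with the core GCGTG. RefSeq windows of 300 bases (build GRCm38.p6), 250 before the annotated start and 50 after, were matched for 6 of the 10 genes, with 9 windows in all. On either strand (GCGTG or CACGC), 7 of these 9 windows held the core, at least 1 for each of the 6 genes. Of all 32817 promoter windows of the same length, 32.4% held it. The core is rich in G and C: among the 9678 windows with at least 60% G and C, 59.2% held it, and so did 6 of the 7 member windows of that kind. The Smad box CAGAC (or GTCTG) was found in 3 of the 9 windows, against 49.6% of all windows, and the 2 motifs overlapped in none of them. Some Smad5 windows share bases. A match to these letters is a description of the window and no evidence of binding. The windows of the ligand, the type I receptor and Smad3, 1 from each level of the pathway, are printed 5′ to 3′ with the GCGTG cores, on either strand, in capitals. They lie at chr7:25686752-25687051 (plus strand) for Tgfb1, chr4:47352972-47353271 (plus strand) for Tgfbr1 and chr9:63757945-63758244 (minus strand) for Smad3.
Tgfb1 promoter: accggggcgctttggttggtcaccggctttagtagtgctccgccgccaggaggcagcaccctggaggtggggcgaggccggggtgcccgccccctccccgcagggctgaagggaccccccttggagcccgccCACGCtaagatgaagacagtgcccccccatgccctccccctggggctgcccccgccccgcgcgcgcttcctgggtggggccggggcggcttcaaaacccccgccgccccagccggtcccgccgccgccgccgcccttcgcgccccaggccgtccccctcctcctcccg
Tgfbr1 promoter: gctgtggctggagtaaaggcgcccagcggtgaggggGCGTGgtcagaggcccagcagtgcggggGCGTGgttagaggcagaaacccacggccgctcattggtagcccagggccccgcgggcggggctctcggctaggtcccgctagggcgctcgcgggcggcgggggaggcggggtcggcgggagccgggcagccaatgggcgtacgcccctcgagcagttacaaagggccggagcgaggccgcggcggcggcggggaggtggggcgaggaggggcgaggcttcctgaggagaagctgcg
Smad3 promoter: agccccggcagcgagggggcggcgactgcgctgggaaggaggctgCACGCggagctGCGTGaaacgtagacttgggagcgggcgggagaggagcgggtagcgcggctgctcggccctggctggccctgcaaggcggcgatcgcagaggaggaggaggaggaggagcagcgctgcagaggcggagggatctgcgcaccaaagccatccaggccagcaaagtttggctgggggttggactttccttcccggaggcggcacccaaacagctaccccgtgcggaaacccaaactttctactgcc
The core began 118 bases upstream of the start in Tgfb1, where it stands on the reverse strand. It began 214 and 186 bases upstream in the printed Tgfbr1 window, and 205 and 194 bases upstream in Smad3, once on each strand. A second Tgfbr1 window, at chr4:47385966-47386265 (plus strand) and not printed, held no GCGTG core and 1 Smad box.

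None of the 10 genes differed between the genotypes at an adjusted p under 0.05 in limma, where 0% of the 25335 probe sets did. This test draws the variance of each probe set toward a value common to all. At an unadjusted p under 0.05 there were also 0 of the 10, against 4.21% of all probe sets (1067). For 0 of the 10 did the Ahr-KO and WT values stand apart without overlap, against 5.74% of all probe sets. Fitted differences were above 0 for 6 of the 10 genes, against 48.3% of all probe sets, with a median of 0.36 for the members and -0.03 for all. Only Smad2 differed by more than 1 log2 unit, a size that 24.1% of all probe sets exceeded. The members' median residual standard deviation (SD) was 1.25 log2 units, against 0.93 for all probe sets. The limma 95% interval of every member's difference included 0, and the narrowest, that of Smad5, still reached from -1.79 to 0.82. A change of 1 log2 unit in at least 1 direction lay within the interval of every member.

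**Figure D1:**
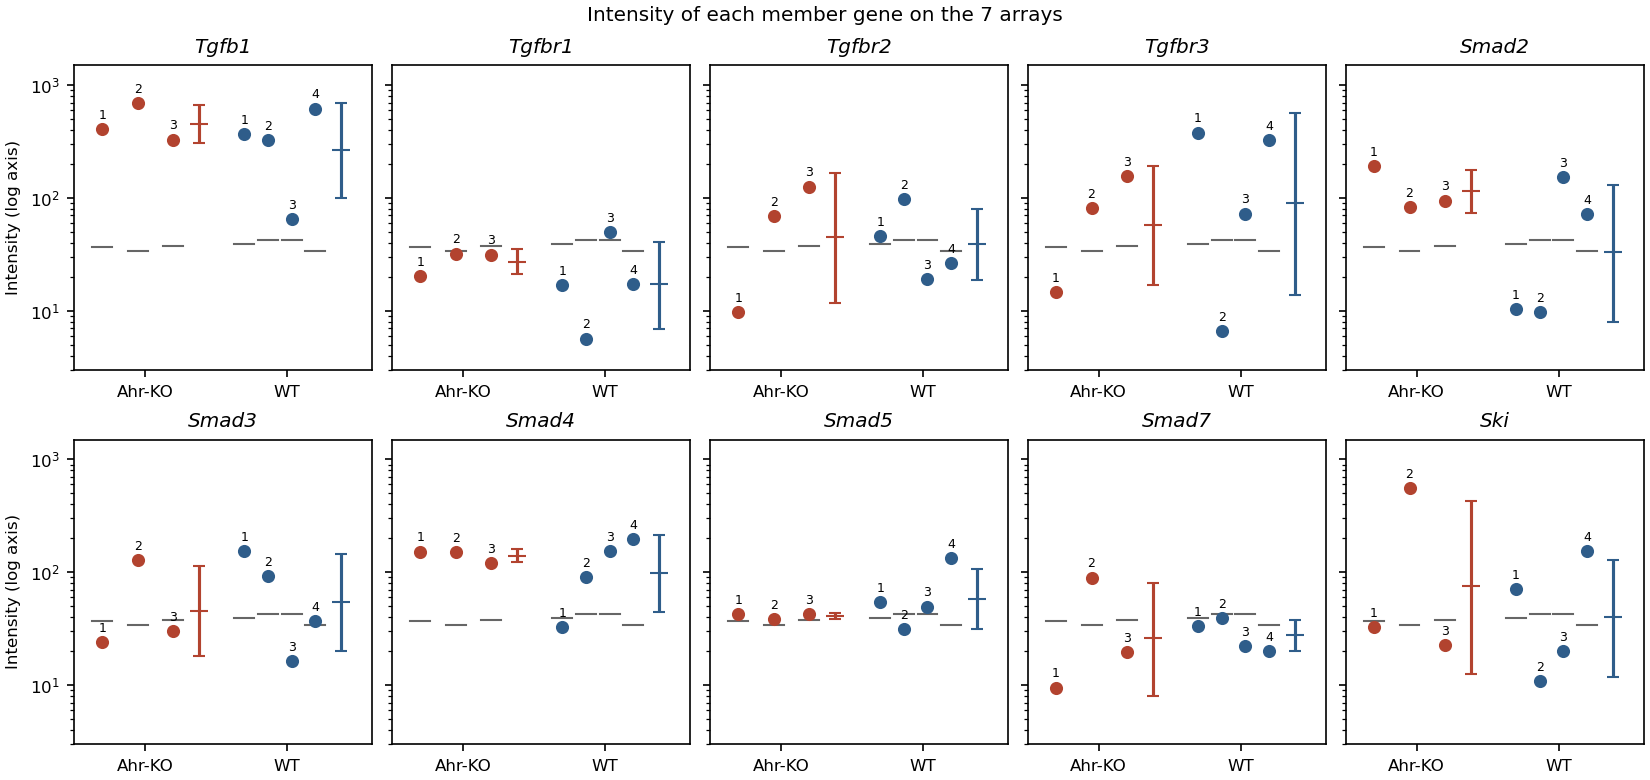
Deposited intensity (log axis) of each of the 10 genes on the 3 Ahr-KO arrays (red) and 4 WT arrays (blue), with replicate numbers above the points, the mean ± SD of the log2 values at the right of each group and the array's background mark as a grey dash. Tgfb1 lay above the mark on all 7 arrays, Tgfbr1 and Smad7 on 1 each, and the genotypes overlap in every panel.

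Tgfb1, the ligand, was the member that stood above the background mark on all 7 arrays, as did 14.4% of all probe sets. Replicates 1 to 3 of Ahr-KO read 409, 693 and 330, and replicates 1 to 4 of WT read 370, 326, 64.9 and 620. Only WT replicate 3 was low, and the other WT arrays spanned nearly the same range as the Ahr-KO arrays. The means were 477 ± 191 (SD, n = 3) and 345 ± 227 (SD, n = 4). On the log2 scale the difference was 0.78 ± 0.80 (SE; limma adjusted p = 0.963, 95% interval -1.06 to 2.62), and 0.11 without WT replicate 3. An exact two-sided permutation test over the 35 splits of the arrays gave p = 0.429, where 0.0286 is the smallest possible.

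Tgfbr1, the type I receptor kinase, gave little signal. The Ahr-KO arrays gave 20.2, 32.2 and 31.5, against WT values of 16.9, 5.68, 49.5 and 17.2. WT replicate 3, its highest value, was the only array on which it passed the background mark, and WT replicate 2 was its lowest. The fitted log2 difference came to 0.64 ± 0.70 (SE; limma adjusted p = 0.963), and 0.16 without WT replicate 2.

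Tgfbr2, the type II receptor kinase that binds the ligand, varied within each genotype by more than it differed between them. Its intensity was 9.79, 69.5 and 126 with Ahr knocked out and 45.6, 97.9, 19.1 and 26.4 in the wild type. The Ahr-KO arrays alone spanned 12.9-fold and enclosed every WT value. It exceeded the mark on 2 Ahr-KO and 2 WT arrays. The genotypes differed on the log2 scale by 0.20 ± 0.94 (SE; limma adjusted p = 0.991), from -0.53 without Ahr-KO replicate 3 to 1.24 without Ahr-KO replicate 1.

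Tgfbr3, or betaglycan, the co-receptor that presents ligand to the type II receptor, had the widest range of the 10 genes. Replicates 1 to 3 of Ahr-KO read 14.6, 80.7 and 156, and replicates 1 to 4 of WT read 379, 6.59, 72.7 and 327. Both the highest and the lowest of the 7 values were WT arrays, replicates 1 and 2, which differed 57.5-fold. The mean was 83.8 ± 70.8 (SD, n = 3) in the knockout, against 196 ± 184 (SD, n = 4). The difference in log2 was -0.64 ± 1.45 (SE; limma adjusted p = 0.977, 95% interval -4.01 to 2.72). It was -1.84 without WT replicate 2 but 0.31 without Ahr-KO replicate 1.

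Smad2, one of the 2 transducers that the TGF-beta receptor phosphorylates, had the largest difference of the members. The Ahr-KO arrays gave 190, 82.9 and 94.7, against WT values of 10.3, 9.77, 154 and 71.5. The WT arrays fell into a low pair, replicates 1 and 2, below the background mark, and a pair within or near the Ahr-KO range, replicates 3 and 4. All 3 Ahr-KO arrays exceeded the mark. On the log2 scale the difference was 1.75 ± 1.02 (SE; limma adjusted p = 0.963, 95% interval -0.61 to 4.12), and it ran from 1.2 to 2.48 over the fits that each lacked 1 array. The exact two-sided permutation p was 0.257.

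Smad3, the other transducer of this kind, did not share that pattern. Its intensity was 24.0, 128 and 30.1 with Ahr knocked out and 154, 93.2, 16.3 and 37.1 in the wild type. WT replicates 1 and 2, the low arrays for Smad2, were among the 3 highest for Smad3. Ahr-KO replicate 2 was the single Ahr-KO array above the mark. The fitted log2 difference came to -0.26 ± 0.91 (SE; limma adjusted p = 0.986), from -1.0 without Ahr-KO replicate 2 to 0.23 without WT replicate 1.

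Smad4, the common partner of the receptor-activated Smads, was steady on the Ahr-KO arrays. Replicates 1 to 3 of Ahr-KO read 153, 151 and 121, and replicates 1 to 4 of WT read 32.8, 90.4, 155 and 196. All arrays except WT replicate 1 were above the background mark. The Ahr-KO values lay inside the WT range, with log2 SDs of 0.19 (n = 3) in Ahr-KO and 1.13 (n = 4) in WT; whether the spreads differ was not tested. The genotypes differed on the log2 scale by 0.52 ± 0.66 (SE; limma adjusted p = 0.965). Without WT replicate 1 the difference was near 0, at 0.004.

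Smad5, which carries BMP signals, was the member with the narrowest range, 4.27-fold over the 7 arrays. The Ahr-KO arrays gave 42.8, 38.5 and 42.8, against WT values of 54.8, 31.3, 49.6 and 133. The Ahr-KO values were close to each other and to the background mark, and WT replicate 4 was the high array. The difference in log2 was -0.48 ± 0.56 (SE; limma adjusted p = 0.964), and -0.09 without WT replicate 4.

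Smad7, the inhibitory Smad that is itself induced by TGF-beta and blocks the type I receptor, was dim. Its intensity was 9.53, 89.7 and 19.6 with Ahr knocked out and 33.5, 38.9, 22.3 and 19.9 in the wild type. Ahr-KO replicate 2 was the only array above the mark, and the WT arrays stayed within 1.96-fold of each other. On the log2 scale the difference was -0.08 ± 0.76 (SE; limma adjusted p = 0.996), from -0.96 without Ahr-KO replicate 2 to 0.59 without Ahr-KO replicate 1. With a pseudocount of 16 it was 0.06.

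Ski, a corepressor that binds Smads and blocks their transcriptional activity, depended on 1 array. Replicates 1 to 3 of Ahr-KO read 32.9, 559 and 22.8, and replicates 1 to 4 of WT read 70.9, 10.9, 20.0 and 154. Ahr-KO replicate 2 was 24.5-fold above the lowest Ahr-KO array, and the other Ahr-KO values lay inside the WT range and below the mark. The mean was 205 ± 307 (SD, n = 3) in the knockout, against 63.8 ± 65.4 (SD, n = 4). The fitted log2 difference came to 0.91 ± 1.30 (SE; limma adjusted p = 0.966), and -0.52 without Ahr-KO replicate 2.

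**Figure D2:**
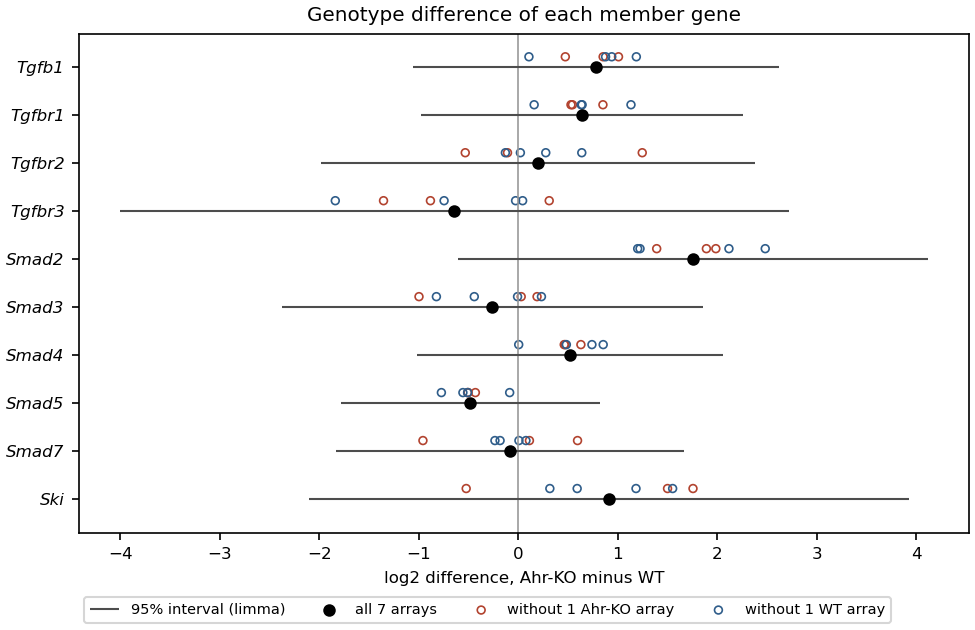
Log2 difference, Ahr-KO minus WT, of each gene with all 7 arrays (black points), its limma 95% interval (bars) and the value without each array in turn (open circles, red for an Ahr-KO array left out and blue for a WT array). All 10 intervals include 0, and the open circles fall on both sides of 0 for Tgfbr2, Tgfbr3, Smad3, Smad7 and Ski.

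The genes did not share 1 order of the arrays. Ahr-KO replicate 2 was the highest of the 7 for 3 genes, Tgfb1, Smad7 and Ski, and the lowest for none. WT replicate 2 was the lowest for 5, Tgfbr1, Tgfbr3, Smad2, Smad5 and Ski, and the highest for none. The arrays also differed as wholes. WT replicate 2 had the smallest share of all probe sets above its mark (30.7%), with 4 of the 10 genes above it. Ahr-KO replicate 2 and WT replicate 4 had the largest shares (41.9 and 44.9%), with 9 and 7 of the 10. On Ahr-KO replicates 1 and 3 the counts were 4 and 6, and on WT replicates 1 and 3 they were 6 and 6. The part of overall signal in the members' values was not tested.

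**Figure D3:**
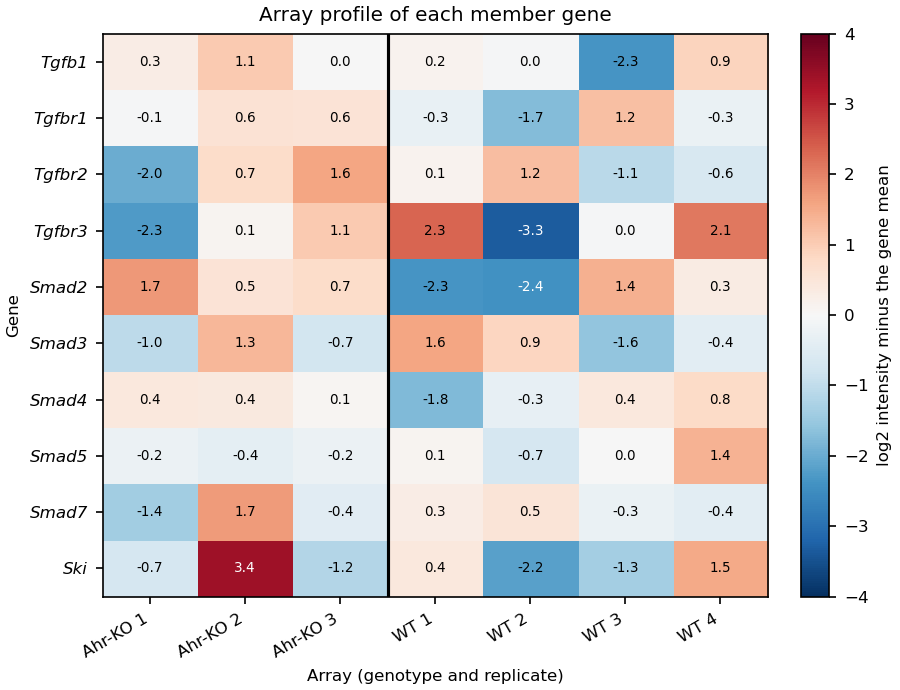
Log2 intensity minus the gene's mean over the 7 arrays, for each gene (rows) and array (columns, Ahr-KO to the left of the line), with red above and blue below the mean. Ski on Ahr-KO replicate 2, at 3.39, and Tgfbr3 on WT replicate 2, at -3.31, are the farthest from their means.

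Tgfbr3, the gene of widest range among the members above the mark on at least 4 arrays, was set against all other annotated probe sets. Likeness was measured as the root mean square difference between log2 profiles centred on their own means over the 7 arrays. The nearest named genes were F2rl2, which encodes a protease-activated receptor, at 0.49, Pot1b, a telomere-binding protein gene, at 0.50, and Mrpl18, of the mitochondrial ribosome, at 0.54. Each of them had its lowest value on WT replicate 2, like Tgfbr3. They were picked for a like profile, so the shared lowest array is no separate result. F2rl2 read 14.5, 69.3 and 54.5 in the knockout, against 342, 2.94, 55.3 and 220 in the wild type.

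The other genes of the TGF-beta and BMP pathways were counted by role, with 63 of 64 listed genes measured. None passed the adjusted threshold in limma in either direction. At an unadjusted p under 0.05 there were 3 (4.76% of the 63, against 4.21% of all probe sets). This count was 6 (9.52%, against 4.11%) without Ahr-KO replicate 1, 5 (7.94%, against 4.2%) without Ahr-KO replicate 3 and 2 (3.17%, against 3.77%) without WT replicate 3. Differences were above 0 for 30 and below 0 for 33, with a median of -0.04. The genotypes did not overlap for 2 genes with higher values in Ahr-KO (3.17%, against 2.61% of all probe sets) and for 3 with lower values (4.76%, against 3.13%). Those 5 were Id2 and Bmp2, and Bmp7, Thbs1 and Acvr1b. Bmp2, below the mark on every array, lies outside the naming rule and was named after its values were seen.

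Of 10 other ligand genes, 2 had higher and 8 lower values in Ahr-KO, with a median of -0.10, and 5 lay below the mark on every array. Bmp7, which encodes a BMP ligand, stood at 17.8, 16.6 and 7.66 in the knockout, against 36.9, 35.6, 26.5 and 27.2 in the wild type, below the mark throughout. The genotypes differed on the log2 scale by -1.18 ± 0.47 (SE; limma adjusted p = 0.963), and by -0.67 with a pseudocount of 16. Gdf11, a ligand of activin receptors, differed by 1.53 ± 0.70 (SE), or 0.80 without Ahr-KO replicate 2. Inhba, a subunit of activin A, differed by -1.59 ± 0.77 (SE) at levels below the mark on every array, or by -0.75 without Ahr-KO replicate 2, where it read 0.01, and by -0.37 with a pseudocount of 16.

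Of 11 genes for ligand latency and activation, 6 were higher and 5 lower, with a median of 0.04. Thbs1, whose product thrombospondin can activate latent TGF-beta, stood at 2.85, 4.45 and 7.44 in the knockout, against 9.04, 18.5, 192 and 143 in the wild type. All Ahr-KO values and the first 2 WT values lay below the mark, so the size depends on the pseudocount. The difference in log2 was -3.10 ± 1.09 (SE; limma adjusted p = 0.963), and -1.81 with a pseudocount of 16. Ltbp2, of the latent TGF-beta binding family, and Itgb6, an integrin chain that activates TGF-beta, differed by -0.98 ± 0.61 (SE) and 0.80 ± 0.56 (SE). Without WT replicate 2 Ltbp2 differed by -0.58, and without Ahr-KO replicate 2 Itgb6 by 0.30. With a pseudocount of 16, Itgb6 differed by 0.50.

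Of 11 other receptors and co-receptors, 4 were higher and 7 lower, with a median of -0.19. Acvr1b, a type I receptor for activin, read 1.44, 17.6 and 13.9 in the knockout, against 19.5, 29.5, 146 and 21.9 in the wild type. WT replicate 3 was the only one of these above its mark. On the log2 scale the difference was -2.12 ± 0.96 (SE; limma adjusted p = 0.963); leaving out Ahr-KO replicate 1 gave -1.2, and a pseudocount of 16 gave -1.11. The receptor genes Acvr1c and Amhr2, below the mark on every array, differed by 1.39 ± 0.89 (SE) and -0.78 ± 0.51 (SE). Acvr1c differed by 0.76 without WT replicate 2, and Amhr2 by -1.23 without Ahr-KO replicate 2. With a pseudocount of 16 they differed by 0.39 and -0.41.

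Of 9 other Smads, adaptors and cofactors, 3 were higher and 6 lower, with a median of -0.29. Crebbp, a coactivator that Smads recruit, was above the mark on all 7 arrays, at 473, 633 and 310 in the knockout, against 150, 108, 160 and 572 in the wild type. WT replicate 4 lay among the Ahr-KO values and the other WT arrays below them. The fitted log2 difference came to 1.20 ± 0.66 (SE; limma adjusted p = 0.963). Zfyve9, or SARA, which brings Smad2 and Smad3 to the receptor, differed by 1.98 ± 1.09 (SE), but by 0.51 without Ahr-KO replicate 2, where it read 491, and by 2.98 without Ahr-KO replicate 1. Smad6, the inhibitory Smad of the BMP branch, differed by -0.81 ± 0.54 (SE), or by -0.49 without WT replicate 3.

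Of 11 inhibitor genes, 7 were higher and 4 lower, with a median of 0.23. Skil, the close relative of Ski, stood at 39.9, 116 and 7.74 in the knockout, against 23.0, 14.1, 3.08 and 12.2 in the wild type. As for Ski, Ahr-KO replicate 2 was the highest array, and without it the log2 difference of 1.55 ± 0.97 (SE; limma adjusted p = 0.963) was 0.68. It was 2.55 without Ahr-KO replicate 3 and 0.99 with a pseudocount of 16. Fkbp1a, whose product binds the type I receptor and holds it inactive, was above the mark on all 7 arrays. The Ahr-KO arrays gave 1174, 371 and 589, against WT values of 451, 159, 112 and 526, with a log2 difference of 1.31 ± 0.72 (SE), or 0.87 without Ahr-KO replicate 1. Ppm1a, a phosphatase acting on Smad2 and Smad3, differed by -1.80 ± 1.14 (SE), or by -2.82 without WT replicate 1, where it read 9.75.

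Of 11 measured target genes, 8 were higher and 3 lower in Ahr-KO, with a median of 0.81; difference signs over all probe sets were above 0 in 48.3%. None passed the adjusted threshold in limma and 1 (9.09%, against 4.21% of all probe sets) the unadjusted. The unadjusted count was 4 (36.4%, against 4.11%) without Ahr-KO replicate 1 and 3 (27.3%, against 4.45%) without WT replicate 4, where the median was 1.28. The count was 2 (18.2%) after quantile normalization or median centring, against 4.21 and 4.33% of all probe sets. Without any 1 of the other arrays it stayed at 1 (9.09%, against 3.77 to 5.29%), as it did with a pseudocount of 16. Id2, an inhibitor of basic helix-loop-helix factors, stood at 63.4, 178 and 182 in the knockout, against 0.01, 9.69, 62.7 and 15.7 in the wild type. The lowest Ahr-KO value and the highest WT value nearly met. The genotypes differed on the log2 scale by 3.63 ± 1.28 (SE; limma adjusted p = 0.963); leaving out WT replicate 1, the array at 0.01, gave 2.51. With a pseudocount of 16 it was 2.19. Tsc22d1, a TGF-beta-stimulated transcription regulator, differed by 2.10 ± 1.05 (SE), or 1.33 without WT replicate 1. Tgfbi, an extracellular matrix protein gene named for its induction by TGF-beta, differed by 2.06 ± 0.94 (SE), or 1.0 without Ahr-KO replicate 2.

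The mean log2 level of the 11 targets was 5.91, 6.94 and 5.74 in the knockout, against 4.96, 5.19, 5.39 and 5.50 in the wild type. The genotypes did not overlap in this mean, also after quantile normalization, median centring or with a pseudocount of 16, but the gap rested on Id2. Without Id2, a check added after the values were seen, the mean of the other 10 targets was 5.90, 6.88 and 5.57 in the knockout, against 5.45, 5.37, 5.33 and 5.64 in the wild type, and the genotypes overlapped. Of these 10 genes, 7 were higher in Ahr-KO, with a median of 0.67. The list was chosen with earlier results of these data known, and no test was made of its mean. It does not separate targets that the pathways switch on from those they switch off. Its mean is therefore not a measure of pathway activity. All 11 granulocyte and monocyte markers also had higher fitted values in Ahr-KO, with a median of 1.11. Without WT replicate 1, 7 of the 11 were higher, with a median of 0.17, and without Ahr-KO replicate 2, 8 were, with a median of 0.33. Their mean log2 level ran from 6.89 to 9.15 in Ahr-KO and from 4.24 to 9.04 in WT, and their order over the arrays was not that of the targets. For both lists WT replicate 1 was the lowest array and Ahr-KO replicate 2 the highest. But WT replicate 2, at 9.04 the highest WT array for these markers, was the second lowest for the targets. The part of such cells in the target levels was not tested.

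**Figure D4:**
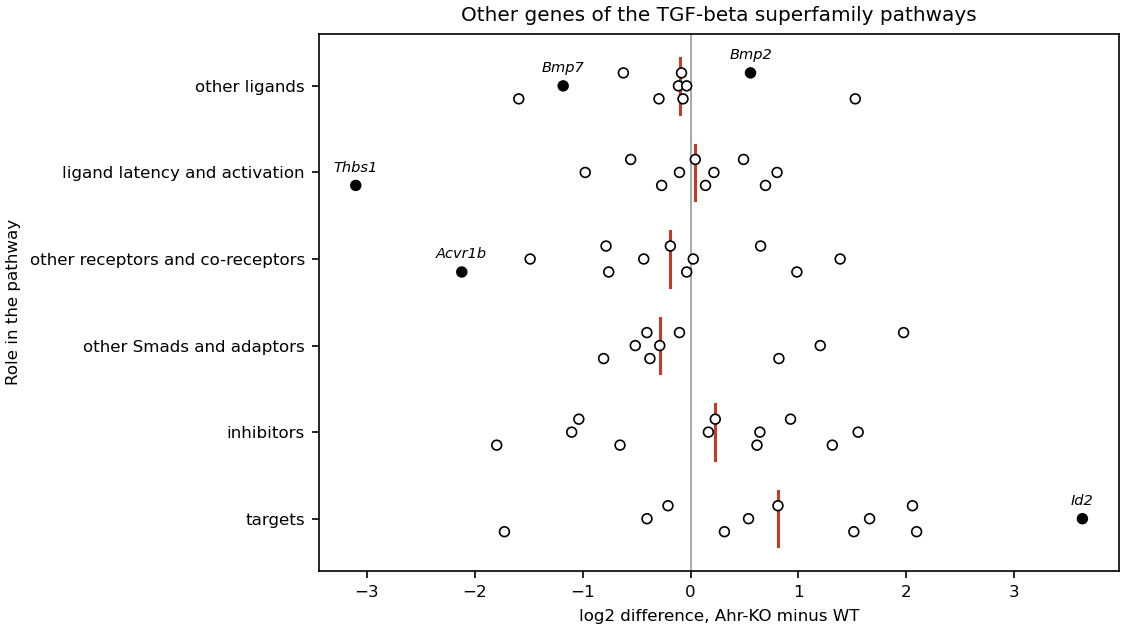
Log2 difference, Ahr-KO minus WT, of 63 other pathway genes by role (circles), with the median of each role as a red line and genes whose genotypes did not overlap filled and named. The medians lie between -0.29 for other Smads and adaptors and 0.81 for the targets, and single genes scatter on both sides of 0 in every role.

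Markers of other cells overlapped between the genotypes in their mean log2 level. Megakaryocyte and platelet markers, of cells rich in TGF-beta1, stood at 6.06 to 6.75 in Ahr-KO and 5.21 to 7.21 in WT, with 3 of 8 higher in Ahr-KO. Pf4, Gp9 and Treml1 among them exceeded the background mark on all 7 arrays, and Gp6 and Clec1b on none. Gp9 was the 1 marker of the 8 with lower Ahr-KO values without overlap (12.5%, against 3.13% of all probe sets). It differed by -1.55 ± 0.58 (SE; limma adjusted p = 0.963), while Pf4 and Treml1 differed by 0.22 ± 0.79 (SE) and 0.35 ± 0.53 (SE). Lower without overlap were also 2 of 10 macrophage and dendritic markers (20%) and 1 of 9 stromal and endothelial markers (11.1%). Over all 65 measured markers there were 4 (6.15%), and 0 were higher without overlap, against 2.61% of all probe sets. Macrophage and dendritic markers were higher for 2 of 10, T and NK markers for 5 of 8, B lymphoid markers for 0 of 6, erythroid markers for 2 of 4, and stromal and endothelial markers for 3 of 9. The counts moved when single arrays were left out, for example to 3 of 6 B lymphoid markers without Ahr-KO replicate 3 and to 1 of 9 HSC markers without WT replicate 2. The HSC markers were higher for 3 of 9, with means of 6.63 to 7.46 in Ahr-KO and 5.87 to 8.01 in WT. Their part in the Tgfb1 and receptor values was not tested.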

How the data were processed

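The values are linear intensities as deposited, 1 for each probe set on each array; per the submitters' processing notes the authors used Affymetrix Expression Console. The summarization, background correction, normalization and genome build behind them are unknown (not given in the sources used here). Genes were named from the platform annotation, which gave 1 symbol to 23521 rows, several to 1814 and none here to 15820. No row with several symbols named a member gene. Values were taken as log2(intensity + 1) and fitted with limma 3.58.1 (R 4.3.3; lmFit and eBayes) on the 7 arrays together, with a single term for genotype. Tests were two-sided, with Benjamini-Hochberg adjustment over 25335 probe sets, with a threshold of 0.05. For single values an exact permutation test over 35 splits was used. Arrays give no read depth, so their number limits the precision.

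The members, the lists and the background mark were chosen with earlier results of these data known. Pathway genes and cell markers were represented by the probe set of highest mean. Within each pathway role, up to 3 genes of smallest unadjusted p were named, and any whose genotypes did not overlap and whose higher mean reached the median of all probe sets. Each fit was repeated without each array, with a block for the replicate number, after median centring or quantile normalization, and with a pseudocount of 16, a filter on dim probe sets, a trended robust variance prior and 1 probe set per gene. The fit was tested on simulated data.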

Additional observations from a re-analysis of the deposited data

Results flagged for a closer look

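Ppm1a, the Smad phosphatase gene, had 1 WT array far from the others. It read 9.75 on WT replicate 1 and 172, 186 and 187 on WT replicates 2, 3 and 4. The gap to the nearest of the other arrays was 0.971 of the group's log2 range, above Dixon's critical value for 4 samples. Across the 29 genes examined in this way, chance alone gives such a gap in about 1 in 20. None of the 10 TGF-beta receptor and Smad genes had one among its 4 WT arrays. The 3 Ahr-KO arrays were not examined in this way.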

How the results depend on the processing

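Under each alternative tried, 0 probe sets passed the adjusted threshold in limma, and 954 to 1339 passed the unadjusted one in the fits of all 25335. None of the 10 genes was called in any of them. At an unadjusted p under 0.05 there was 1 of the 10 without WT replicate 3, against 3.77% of all probe sets, and 0 in every other fit. The number with values above 0, 6 of 10, ran from 4 to 9 when single arrays were left out, and the members' median difference from -0.27 to 0.72. With single arrays left out, differences ran from -0.52 to 1.75 for Ski, -1.0 to 0.23 for Smad3, -0.96 to 0.59 for Smad7, -0.53 to 1.24 for Tgfbr2 and -1.84 to 0.31 for Tgfbr3, on both sides of 0. Smad7 also changed sign with a pseudocount of 16 (0.059), and the cause was not tested. Of 370 alternative values for 29 genes, 356 kept their direction. The other 14 all belonged to 5 of the 10 members: Ski, Smad3, Smad7, Tgfbr2 and Tgfbr3. Some of the 356 could not change, because the variance prior and the dim filter leave each difference as it was. The replicate block only repeats the differences without WT replicate 4. The 356 are therefore not all separate checks. The pathway genes among the 29 were named for small unadjusted p-values in these same data. No gene passed the adjusted threshold in any fit, so none could change side. The filter on dim probe sets left out 1 member, so 9 were counted. Replicate numbers did not pair the arrays: same-numbered arrays correlated at 0.02, -0.06 and 0.01 in their deviations from the group means, and 2 of 6 arrays correlated best with their own number. With the replicate number as a block, 0 probe sets passed the adjusted threshold, 1120 the unadjusted, and the members' median was 0.33. Replicate 4 exists only in WT, so the differences of this fit equal those without WT replicate 4. Over the 63 other pathway genes, the count at an unadjusted p under 0.05, 3 with all arrays, ran from 2 to 6 without single arrays and was 7 (11.1%, against 4.42% of all probe sets) with the replicate block, where 3 of the 11 targets were counted instead of 1; none passed the adjusted threshold in any fit.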
